A study of Mus musculus with 3 samples.

Results

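The 10 testis genes of the actin-related and perinuclear theca group described here are the actin-like genes Actl7a, Actl7b and Actl9, the actin-related genes Actrt1, Actrt2 and Actrt3, the capping protein gene Capza3, the cylicin genes Cylc1 and Cylc2, and Spem1. They were chosen by symbol, and all 10 were found among the 22843 genes of the deposited single-cell table. The perinuclear theca is the cytoskeletal capsule between the nucleus of a spermatid and its acrosome and plasma membrane. It is built while round spermatids elongate, from proteins that are found nearly only in the testis, and it anchors the acrosome and shapes the head. Actl7a, Actl9 and the Actrt proteins are actin-like proteins of the layer beneath the acrosome, Capza3 is the male germ cell form of the alpha subunit that caps actin filaments, and the cylicins are basic proteins of the calyx, the part of the theca behind the acrosome. Spem1 stands apart by role: in mice it is needed for spermatids to shed their cytoplasm and straighten the head.

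The cells came from testes of ICR mice injected at postnatal day 21 with AAV9 carrying a red fluorescent protein (RFP) and a hairpin. Hairpin 1 and hairpin 2 were directed at the long noncoding RNA Gm4665, and the control hairpin (shCtrl) was injected into the contralateral testis. Somatic cells were removed, RFP-positive germ cells of 3 mice per condition were sorted, and 1 library of 3' single-cell RNA was made for each condition, so mice are pooled within a library and no difference below has a replicate check. There were 1732 cells with hairpin 1, 1873 with hairpin 2 and 1418 with the control hairpin, with median depths of 14668, 16518 and 19366 UMIs (unique molecular identifiers, 1 per captured RNA molecule). How long after injection the testes were taken is not stated in the labels, and only cells that took up the virus and passed the sort are represented.

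The target itself was at 52.8 UMIs per 1000000 with hairpin 1 and 79.1 with hairpin 2, against 311 with the control hairpin. The 3 libraries also differed in which cells they held. Cells with markers of elongating and condensing spermatids were 36.0% of the hairpin 1 library, 24.7% of the hairpin 2 library and 40.6% of the control library. Leukocytes were still present after the sort and were 5.54% and 9.77% of the hairpin libraries and 1.48% of the control library, and a cluster with both Sertoli cell and elongating spermatid markers was 4.45% and 6.03% against 11%. Mean mitochondrial shares were 1.22% and 1.43% with the hairpins and 0.662% in the control, and pairs of libraries shared between 5 and 7 cell barcodes. Levels below are UMIs summed over the cells of a library or class per 1000000 UMIs (CPM), with 95% Poisson intervals in brackets where they are given. Folds are log2 ratios to the control library with 1 CPM added. All intervals cover counting error only and not the spread between mice.

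The genes lie on 6 chromosomes in mm10. Actl7a (chr4:56743413-56744925, plus strand) and Actl7b (chr4:56740005-56741443, minus strand) are head-to-head neighbours with 1969 bases between them, and both consist of 1 exon. Actrt2 (chr4:154666433-154667867) and Cylc2 (chr4:51216678-51230272) are on the same chromosome. Actl9 is at chr17:33432896-33434268, Actrt3 at chr3:30597073-30599939, Capza3 at chr6:140041252-140042778 and Spem1 at chr11:69820876-69822180. Actrt1 (chrX:46329007-46330345) and Cylc1 (chrX:111110418-111125854) are X-linked. Actl9, Actrt1 and Actrt2 are also single-exon genes in the GENCODE vM21 annotation. No member transcript matched a transcript of another gene on the same strand at 95% identity or more over at least 90 bases. Exons of Capza3 overlap those of Plcz1, and an exon of Actl7b overlaps Gm26657, each on the opposite strand, and since nothing states whether counting used strand, reads from such partners cannot be told apart.

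Promoters of 8 of the 10 genes were found in the RefSeq table of GRCm38.p6, all but Capza3 and Cylc2. The 250 bases before each start were searched on both strands for the cAMP response element TGACGTCA, for its core TGACG and for TATAAA, and, after the sequences had been read, for TGATGTCA (TGACATCA on the other strand), which differs from the full element at 1 base. Full elements were found in 0 of 8 promoters, against 1.55% of 32851 mouse promoters. TGATGTCA was found in 4 of 8, those of Actl7a, Actl7b, Actl9 and Cylc1, against 2.93% of all promoters. Its first base lay 40 bases before the start in Actl7a, 36 in Actl7b, 60 in Actl9 and 32 in Cylc1. Because this letter string was picked by reading these promoters, its count is a description and supports nothing. TGACG was present in the promoter of Actrt3 alone (17.8% of all promoters), and TATAAA in that of Actl9 alone (12.4%). The 4 promoters that share the string are shown so that its place can be compared, 5′ to 3′ on the strand of the gene, with the match in capitals. They are chr4:56743172-56743421 (plus), chr4:56741426-56741675 (minus), chr17:33432649-33432898 (plus) and chrX:111110168-111110417 (plus).
Actl7a: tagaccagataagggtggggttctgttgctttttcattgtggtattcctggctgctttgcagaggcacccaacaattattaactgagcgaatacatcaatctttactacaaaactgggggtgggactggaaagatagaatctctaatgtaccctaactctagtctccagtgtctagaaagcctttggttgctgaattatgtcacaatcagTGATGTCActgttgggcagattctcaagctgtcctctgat
Actl7b: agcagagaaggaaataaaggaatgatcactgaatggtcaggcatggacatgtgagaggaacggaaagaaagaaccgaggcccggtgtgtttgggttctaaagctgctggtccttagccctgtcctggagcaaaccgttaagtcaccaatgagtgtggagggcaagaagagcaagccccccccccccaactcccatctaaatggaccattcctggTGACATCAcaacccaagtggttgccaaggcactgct
Actl9: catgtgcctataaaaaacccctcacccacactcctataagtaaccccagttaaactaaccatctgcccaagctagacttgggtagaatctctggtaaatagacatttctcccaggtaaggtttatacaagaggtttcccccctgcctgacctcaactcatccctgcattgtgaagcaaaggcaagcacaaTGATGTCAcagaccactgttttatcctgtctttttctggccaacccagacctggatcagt
Cylc1: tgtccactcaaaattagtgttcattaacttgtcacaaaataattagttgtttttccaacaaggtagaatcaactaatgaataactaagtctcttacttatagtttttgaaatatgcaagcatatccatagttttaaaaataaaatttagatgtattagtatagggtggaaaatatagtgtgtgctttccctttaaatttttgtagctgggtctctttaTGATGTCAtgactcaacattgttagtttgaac
The divergent Actl7a and Actl7b promoters both carry the string, although the expression profiles of the 2 genes differ, as described next.

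All 10 genes were spermatid genes, but they did not peak together. Cells were grouped into 19 clusters without using the members or Gm4665, and the spermatid clusters were put in order by the share of their UMIs from 12 elongating-spermatid markers such as Prm1 and Tnp2, which runs between 3.36% in cluster 2 (round spermatids) and 25.5% in cluster 7. Actl7b came earliest. It was already at 311 and 475 CPM in the larger pachytene clusters, was highest in round spermatid clusters 3 (799 CPM) and 2 (766 CPM), and was at 109 CPM in cluster 7, 13.6% of its highest level. Actl7a followed, with 669 CPM in cluster 3 and 586 CPM in the first elongating cluster, cluster 1, and it kept 58.4% of its highest level in cluster 7. So the head-to-head pair was near its highest level in the same round spermatids and separated later. Actl7a fell to 49.0% of its highest level in cluster 8 and 54.7% in cluster 0, while Actl7b fell further. The 109 CPM of Actl7b in cluster 7 lay within the 101 to 133 CPM of the leukocyte clusters.

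The cylicins were highest in cluster 5, late round spermatids, where Cylc1 had 313 CPM and Cylc2 526 CPM. Their profiles over the 19 clusters were the closest of any member pair (Pearson r = 0.979 on log2 values, a description across clusters pooled over libraries). Cylc2 was nonetheless earlier on the way up: cluster 2 held 74.9% of its highest level, against 52.1% for Cylc1. Actrt3 had the sharpest profile. It was at 24.6 CPM in cluster 2, 266 CPM in cluster 3, 307 CPM in cluster 5 and 475 CPM in cluster 1. Later in the order it was at 49.4 CPM in cluster 8, 101 CPM in cluster 0 and 32.0 CPM in cluster 7, so its decline was not steady. Capza3 was also highest in cluster 1 (790 CPM) and then had 469 CPM in cluster 8, 698 CPM in cluster 0 and 387 CPM in cluster 7, 49.0% of its highest level.

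Actl9, Actrt2, Actrt1 and Spem1 stayed high to the end of the order. Actl9 had 500 CPM in cluster 3 and 481 CPM in cluster 7, with clusters 5, 1, 8 and 0 lower than both. Actrt2 was highest in cluster 0 (1736 CPM), and Actrt1, the least captured member, in cluster 7 (89.97 CPM). Spem1 was the latest, with 141 CPM in cluster 2, 630 CPM in cluster 1 and 1333 CPM in cluster 7. Its profile was close to that of Actrt2 (r = 0.955) and unlike that of Actl7b (r = -0.067). The cluster with the highest level was the same in the 3 libraries for Actl7a, Actrt1, Actrt2, Actrt3, Capza3, Cylc2 and Spem1; in Actl7b it was cluster 3 with both hairpins and cluster 2 in the control, in Actl9 it was cluster 7 with hairpin 1, cluster 3 with hairpin 2 and cluster 7 in the control, and in Cylc1 it was cluster 5 with hairpin 1, cluster 1 with hairpin 2 and cluster 5 in the control.

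**Figure D1:**
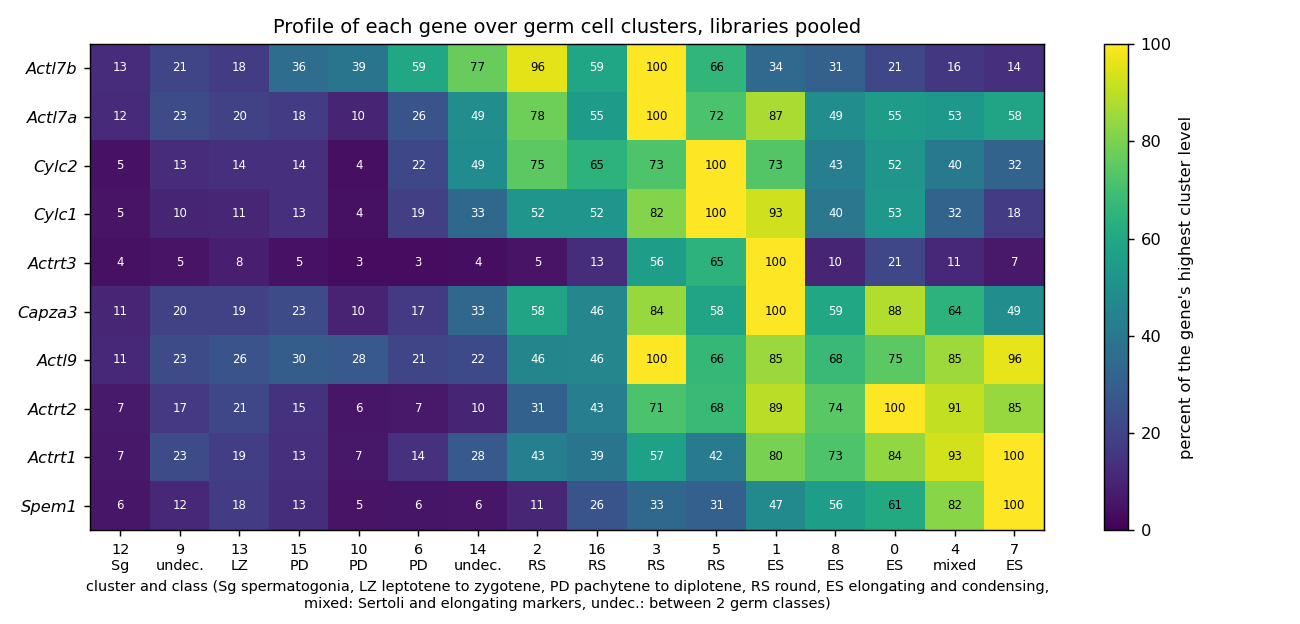
Level of each gene (rows) in each germ cell cluster (columns, libraries pooled) as a percent of the gene's own highest cluster level; spermatid clusters run left to right by their share of elongating-spermatid marker UMIs. Highest levels mostly move right down the rows, with Actl7b at 95.8% or more of its highest level in clusters 2 and 3, Actrt3 highest in cluster 1, and Spem1 in cluster 7. Actl9 departs from this, being highest in cluster 3 and at 96.2% of that level in cluster 7.

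Genes outside the group with the most similar cluster profiles were named by their Pearson correlation over the same 19 clusters. They were Ace, Tbc1d21 and Allc for Actl7a (r = 0.986 to 0.989), Ppp1r32, Gm5142 and Tsga8 for Actl7b (0.974 to 0.986), and Zfand4.1, as the table spells it, Gpat4 and Mllt11 for Actl9 (0.967 to 0.985). For Actrt1 they were 1700019D03Rik, Fam71e1 and Gm6812 (0.984 to 0.987), for Actrt2 Cst8, H1fnt and Txndc2 (0.994 to 0.996), and for Actrt3 Trp53tg5, Tuba8 and Iqcf6 (0.984 to 0.987). Capza3 was closest to 1700109G14Rik, Spata19 and Tssk2 (0.989 to 0.992), Cylc1 to 1700037C18Rik, Efcab3 and Spag4 (0.984 to 0.986), Cylc2 to 1700011L22Rik, Tescl and Adam1a (0.979 to 0.982), and Spem1 to Tppp2, 1700012A03Rik and 1700042G07Rik (0.996 to 0.997). Plcz1, the sperm phospholipase gene that overlaps Capza3, had a profile with r = 0.96 to it and stood at 189 and 158 CPM with the hairpins, against 239 CPM in the control. Gm26657, which overlaps Actl7b, had 5.66 and 7.35 CPM, against 5.84 CPM.

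Levels of the chromosomal neighbours described here were mostly low. The nearest protein-coding gene on either side of a member was looked up, and Actl7a and Actl7b are each other's neighbours. Zfp101 and Adamts10 beside Actl9, Prr32 and Smarca1 beside Actrt1, Prdm16 and Ttc34 beside Actrt2, Mecom and Mynn beside Actrt3, Pik3c2g beside Capza3, Grin3a beside Cylc2 and Nlgn2 beside Spem1 were each under 10 CPM. Klf4 beside Actl7b had 67.5 and 49.5 CPM with the hairpins and 44.1 CPM in the control. Plekha5 beside Capza3 had 16.8 and 15.5 CPM, against 13.3 CPM, and Smc2 beside Cylc2 had 30.7 and 36.2 CPM, against 19.6 CPM.

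With Gm4665 knocked down, all 10 genes were lower over all cells with both hairpins than in the control library, a direction shared by 28.2% of the 7068 genes compared. None was at least 2-fold lower with both hairpins, as 0.495% of all genes were, though under TMM scaling, which lowers the median of all genes by over 0.1, Actrt3 was; and none was at least 2-fold higher (1.23% of all genes). All 10 passed the low-level filter of 10 CPM and 30 UMIs in this comparison and in each class compared below. The median log2 fold of the 10 was -0.41 with hairpin 1 and -0.62 with hairpin 2, beside 0.23 and 0.25 over all genes compared. Both hairpin libraries are set against the same control library, so the 2 folds of a gene share that library.

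Actrt3, the actin-related protein that binds profilin 3, differed most. It had 82.3 CPM (79.4 to 85.2) with hairpin 1 and 66.5 CPM (64.1 to 69.0) with hairpin 2, against 157 CPM (154 to 161) in the control library, log2 folds of -0.93 and -1.23. Its intervals in the hairpin libraries lay well below the control interval and did not overlap each other. Spem1 had 436 and 364 CPM with the hairpins, against 639 CPM (folds -0.55 and -0.81). Actrt2 had 794 and 699 CPM, against 1146 CPM (-0.53 and -0.71). In each of these genes hairpin 2 was lower than hairpin 1 over all cells as sequenced, while Gm4665 itself was lower with hairpin 1. With clusters weighted to the control mix, as described below, this order held for Spem1 and Actrt2 but not for Actrt3 (-0.23 and -0.20).

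The same order, hairpin 2 below hairpin 1 below control, held for the other members except Actrt1. Actl7a, which in mice is needed to keep the acrosome attached, had 338 and 295 CPM, against 443 CPM in the control (-0.39 and -0.59). Actl9 had 268 and 231 CPM, against 363 CPM (-0.44 and -0.65). The intervals of the control did not overlap those of the hairpins in either gene. Cylc1 had 116 and 101 CPM, against 161 CPM (-0.47 and -0.67). Capza3 differed less with hairpin 1, at 399 CPM, than with hairpin 2, at 334 CPM, against 490 CPM in the control (-0.30 and -0.55). Cylc2 had 249.3 CPM with hairpin 1, hardly under the control level of 257 CPM, and 189 CPM with hairpin 2 (-0.04 and -0.44). The cylicins thus differed from each other with hairpin 1, where Cylc1 was lower and Cylc2 close to the control. Actrt1 had 41.9 and 43.1 CPM, against 52.5 CPM (-0.32 and -0.28). Actl7b, the earliest gene of the order, differed least with hairpin 2 and little with hairpin 1, with 375 and 354 CPM against 395 CPM in the control (-0.07 and -0.16).

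**Figure D2:**
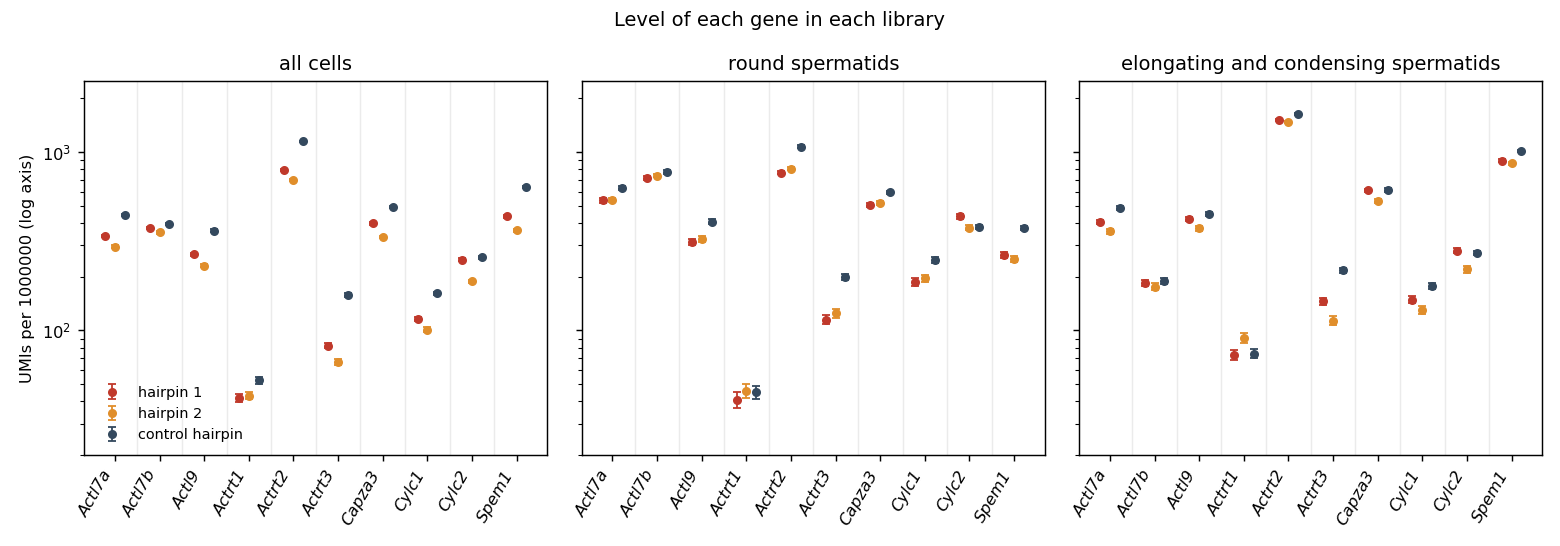
CPM (log axis) of each gene in the hairpin 1, hairpin 2 and control libraries, over all cells and in the 2 spermatid classes; points are sums over 1 library and bars are 95% Poisson intervals, often smaller than the points. Over all cells the control library is highest for each gene, by most for Actrt3 (82.3 and 66.5 against 157), while in elongating spermatids its levels are 145 and 113 against 217.

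These differences were next set beside the make-up of the libraries. Clusters 1, 3 and 5, where Actrt3 is high, were 14.6% of the hairpin 1 cells and 8.86% of the hairpin 2 cells, against 28.2% of the control cells. They held 64.4% and 64.1% of the Actrt3 UMIs of the hairpin libraries and 76.6% of those of the control library. Inside these clusters the gap was smaller than over all cells. In cluster 1 Actrt3 had 433 and 452 CPM with the hairpins, against 505 CPM (log2 folds -0.22 and -0.16), in cluster 3 it had 255 and 261 CPM, against 272 CPM (-0.09 and -0.06), and in cluster 5 it had 249.1 and 315 CPM, against 340 CPM (-0.45 and -0.11). Cluster 1 held 46 cells of hairpin 2 and cluster 5 held 34, so those values rest on few cells. Larger gaps were found in clusters where Actrt3 is low. In cluster 2, the earliest round spermatids, it had 15.7 and 21.96 CPM with the hairpins, against 37.5 CPM (-1.20 and -0.75), in pachytene cluster 6 it had 12.6 and 15.4 CPM, against 25.1 CPM (-0.95 and -0.67), and in the cluster with Sertoli markers its folds were -1.02 and -0.82. Leukocytes, which should lack the gene, had 14.3 and 14.5 CPM, against 30.5 CPM, the last from 11 UMIs, so the levels in clusters 2 and 6 are near the background of the same libraries. The clusters of each hairpin library were then weighted to their shares of the control library's UMIs, not of its cells. With this weighting Actrt3 over all cells came to 134 and 137 CPM, against 157 CPM, and its folds to -0.23 and -0.20.

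The same weighting brought the other members closer to the control as well, except Cylc2 with hairpin 1, whose fold was -0.04 as sequenced and 0.18 weighted. Folds became -0.13 and -0.22 for Actl7a, -0.05 and -0.04 for Actl7b, -0.10 and -0.22 for Actl9, -0.15 and -0.19 for Actrt2, and -0.15 and -0.10 for Cylc1. Capza3 came to 0.02 and -0.03, Cylc2 to 0.18 and -0.02, and Actrt1 to -0.07 and 0.17, so 7 of the 10 remained lower with both hairpins. The share of all genes lower with both was not counted after weighting, so this count has no background. Spem1 was now lowest, in place of Actrt3, at -0.25 and -0.40, with 538 and 485 CPM against 639 CPM in the control. The median over all genes was 0.04 with each hairpin after weighting. A different stage mix and a different level within a stage cannot be told apart beyond the resolution of the clusters.

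**Figure D3:**
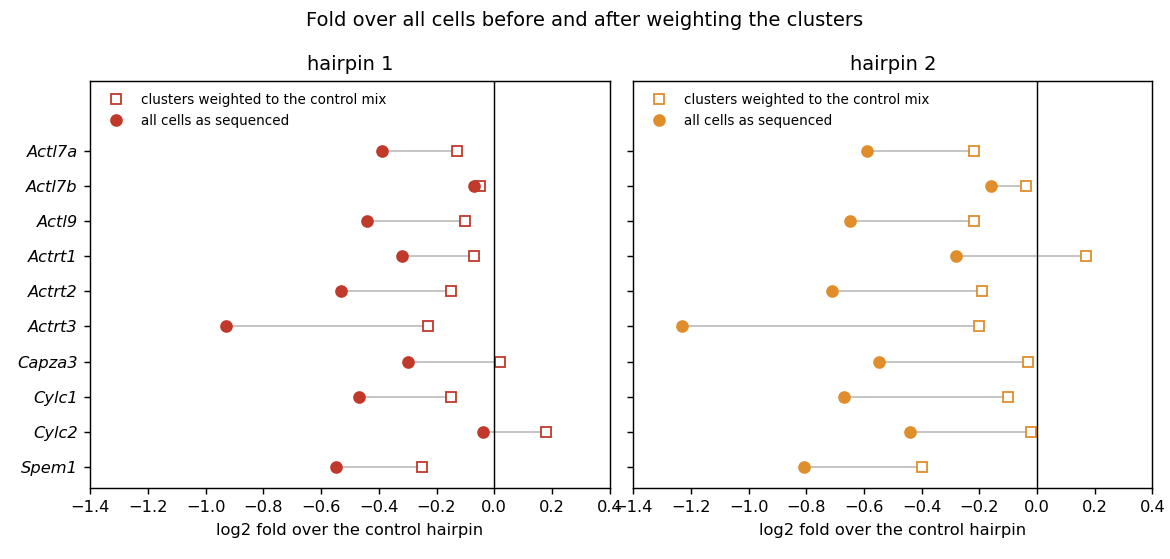
Log2 fold of each gene over the control hairpin for hairpin 1 (left) and hairpin 2 (right), over all cells as sequenced (filled circles) and with clusters weighted to their shares of the control library's UMIs (open squares). All squares lie closer to 0 than the circles except that of Cylc2 with hairpin 1 (0.18 against -0.04), and Spem1 has the lowest weighted fold with each hairpin (-0.25 and -0.40).

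In round spermatids 8 of 10 genes were lower with both hairpins, against 30.9% of the 6591 genes compared, and 0 were at least 2-fold lower (0.258% of all genes). The class median was -0.31 with hairpin 1 and -0.27 with hairpin 2, beside 0.12 and 0.08 over all genes. Actrt3 had 115 and 125 CPM with the hairpins, against 199 CPM in the control (-0.78 and -0.67). Spem1 had 266 and 250.4 CPM, against 376 CPM (-0.50 and -0.58), and Actrt2 had 767 and 806 CPM, against 1071 CPM (-0.48 and -0.41). These 3 had the lowest folds of the class. Actl7b had 712 and 737 CPM, against 773 CPM (-0.12 and -0.07). Cylc2 was higher with hairpin 1, at 436 CPM against 381 CPM in the control, and level with hairpin 2, at 376 CPM, while the intervals of both Actrt1 folds included 0.

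The round class was not made of the same clusters in each library. Cluster 2, the earliest, gave 133 of 426 round cells with hairpin 1, 240 of 408 with hairpin 2 and 122 of 411 in the control, while cluster 3 gave 93, 86 and 172. Cluster 16, which was shallow at a median of 9237 UMIs, gave 129 of the hairpin 1 cells, 48 of the hairpin 2 cells and 29 of the control cells. Elongating-spermatid markers summed to 57506 and 60138 CPM in round spermatids with the hairpins, against 79233 CPM in the control, with 11 of 12 lower with both hairpins, and their part in the members' differences was not tested beyond the weighting. With round clusters weighted to the control mix, folds came to -0.19 and -0.10 for Actrt3, -0.21 and -0.29 for Spem1, and -0.19 and -0.21 for Actrt2.

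In elongating and condensing spermatids the group was nearer to the control than in round spermatids with hairpin 1 and about as far from it with hairpin 2. There 8 of 10 genes were lower with both hairpins, against 33.7% of the 5044 genes compared, 0 were at least 2-fold lower (0.297% of all genes), and the medians were -0.11 and -0.25, beside 0.06 and 0.03. Actrt3 was again lowest, with 145 and 113 CPM against 217 CPM in the control (-0.58 and -0.93). Cylc1 had 149 and 130.1 CPM, against 178 CPM (-0.25 and -0.45), and Actl7a had 407 and 359 CPM, against 485 CPM (-0.25 and -0.43). Capza3 was at the control level with hairpin 1, 610 CPM against 612 CPM, and at 534 CPM with hairpin 2. Actrt1 was the one member above the control with a hairpin beyond its counting interval, with 90.8 CPM with hairpin 2, against 74.2 CPM, but 73.1 CPM with hairpin 1. Cluster 7, the latest, gave 222 of 623 cells with hairpin 1, 233 of 462 with hairpin 2 and 191 of 576 in the control, and cluster 1 gave 89, 46 and 140. With these clusters weighted to the control mix, Actrt3 came to -0.16 and -0.17 and was no longer lowest. Spem1 came to -0.23 and -0.41, Actl7a to -0.17 and -0.29 and Cylc1 to -0.08 and 0.02. Of the 10 genes, 5 were then lower with both hairpins, and the weighted medians of all genes were 0.07 and 0.08. The share of all genes lower with both was not counted after weighting.

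**Figure D4:**
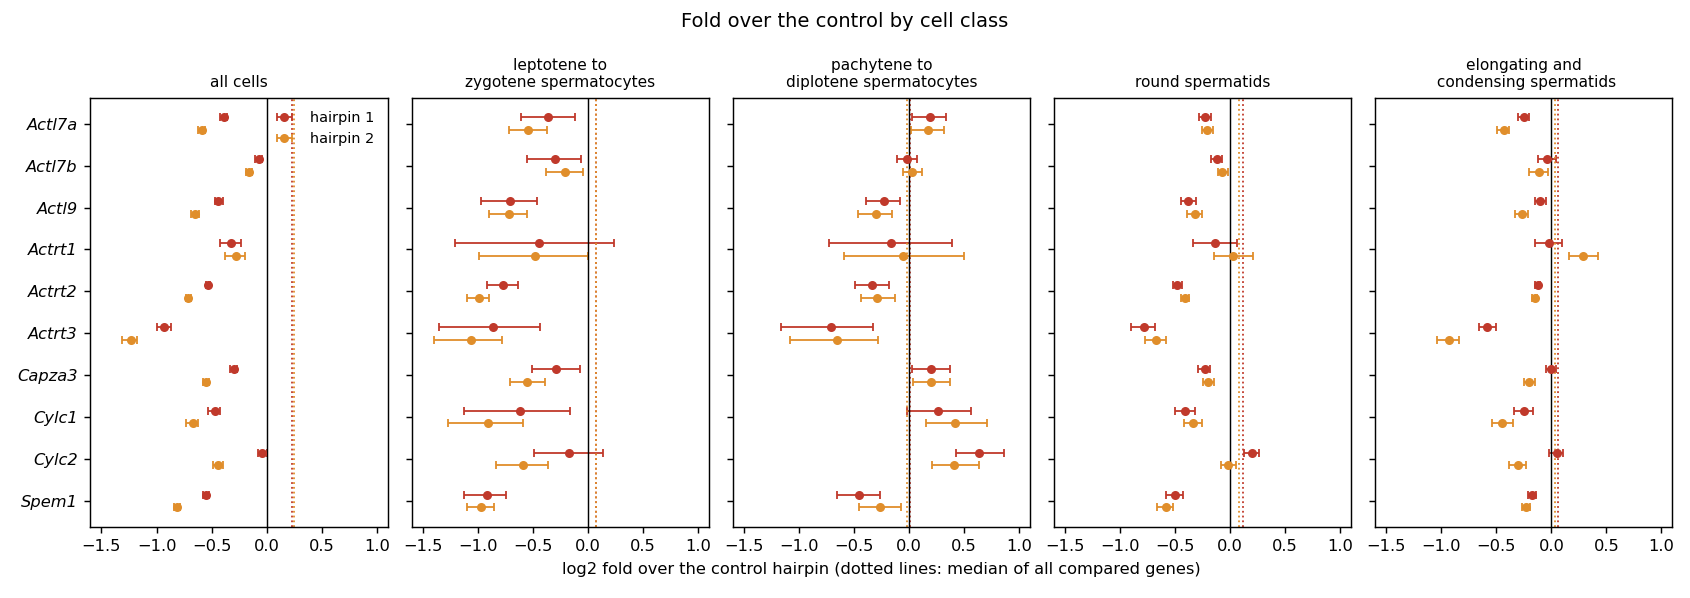
Log2 fold over the control hairpin of each gene for hairpin 1 and hairpin 2, over all cells and in 4 germ cell classes with at least 50 cells in each library (the cluster with Sertoli markers is not drawn); bars are 95% counting intervals and dotted lines the medians of all compared genes. Points lie left of 0 for all genes over all cells, spread to both sides in pachytene to diplotene cells, and have medians of -0.31 and -0.27 in round and -0.11 and -0.25 in elongating spermatids, where Actrt3 is lowest as sequenced (-0.58 and -0.93) but not after weighting to the control mix (-0.16 and -0.17).

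Spem1 was also lower inside single spermatid clusters. It had 134 and 132 CPM with the hairpins, against 161 CPM, in cluster 2, not far above the leukocyte levels of 111 and 83.1 CPM, against 122 CPM, and 423 and 399 CPM, against 476 CPM, in cluster 3. It had 706 and 704 CPM, against 928 CPM, in cluster 0 (-0.39 and -0.40), and 1354 and 1090.0 CPM, against 1596 CPM, in cluster 7 (-0.24 and -0.55). In cluster 1 the gap was smaller, with 637 and 568 CPM against 648 CPM (-0.02 and -0.19). In the remaining clusters of the order its folds were -0.23 and -0.40 in cluster 5, -0.14 and -0.23 in cluster 8 and -0.84 and -0.73 in the shallow cluster 16. Its fold intervals included 0 for hairpin 1 in clusters 1 and 8 and lay below 0 for the others of these 8 clusters. At the finer Leiden resolution of 1.2, elongating spermatids with top genes of cluster 7, such as Glul and Klk1b3, fell into separate clusters. The cluster with Spem1 among its top genes held 90 cells of hairpin 1, 6 of hairpin 2 and 171 of the control. The cluster with Klk1b3 held 135, 219 and 19. A different mix and a different Spem1 level within cluster 7 thus cannot be told apart.

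In cluster 7, where the uneven finer clusters given above for Spem1 limit any reading, the members went both ways, as all genes did. Of the 10 genes, 6 were higher with both hairpins, near the share of 55.7% among the 4269 genes compared. The other 4 were lower with both, beside 26.5% of all genes, and these counts do not set the group apart. Those lower were Actl7a (389 and 336 CPM, against 456 CPM), Actl9 (518 and 408, against 531 CPM), Actrt3 (26.2 and 29.8, against 39.9 CPM) and Spem1. Those higher included Actl7b (113 and 121 CPM, against 91.1 CPM), Cylc1 (60.4 and 61.1, against 43.4 CPM) and Capza3 (394 and 426, against 337 CPM), genes that decline along the order before its end. Of these genes, Actl7b and Actrt3 were near the background. Pooled over libraries they had 109 and 32.0 CPM in this cluster. The leukocyte clusters had 101 to 133 CPM of Actl7b and 14.3 to 23.0 CPM of Actrt3. The directions of these 2 genes here cannot be read as changed expression. Actrt2, Actrt1 and Cylc2 were higher with both by 0.00 to 0.26 on the log2 scale. These directions depend on the scaling, since the median of all genes in this cluster was 0.16 and 0.22, above the member medians of 0.01 and 0.12. Under TMM scaling, applied to this cluster after its values were seen and putting all genes at -0.06 and -0.07, 6 members were lower and 2 higher with both hairpins and the member medians were -0.22 and -0.18. Actl7b (0.08 and 0.11) and Cylc1 (0.24 and 0.19) were then the ones higher, Capza3 was at the control level (0.00 and 0.04), Actrt1 and Actrt2 were lower, and Cylc2 differed in sign between the hairpins. The shares of all genes lower or higher with both were not counted under TMM scaling, so these counts have no background.

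In spermatocytes the members were lower in the control library than in its round spermatids, and the pair of spermatocyte classes gave different pictures. Of the 10, 5 were lower with both hairpins in pachytene to diplotene cells (37.6% of the 6811 genes compared), among them Actrt3 (13.9 and 14.6 CPM, against 23.3 CPM) and Spem1 (67.4 and 77.0 CPM, against 92.4 CPM), and 4 were higher with both (35.8% of all genes). Neither gene stood clear of the leukocyte background there, which was 14.3 and 14.5 CPM, against 30.5 CPM, for Actrt3 and 111 and 83.1 CPM, against 122 CPM, for Spem1, so these differences cannot be read as lower expression. Cylc2 had 93.7 and 80.2 CPM, against 59.95 CPM in the control (0.64 and 0.41), and Cylc1 had 43.0 and 48.0 CPM, against 35.7 CPM (0.26 and 0.42). Actl7b, the member with the highest level there, had 405 and 420 CPM, against 411 CPM, with intervals that included 0. The class was made of clusters 6, 10 and 15, with 127, 45 and 28 cells with hairpin 1, 164, 55 and 28 with hairpin 2, and 50, 30 and 6 in the control. In cluster 6 each library had at least 50 cells. There the folds of Cylc2 were 0.18 and 0.06 and those of Cylc1 were -0.18 and 0.10. All these intervals included 0. In cluster 10 the folds of Cylc2 were 1.28 and 0.76, from 30.9 and 21.2 CPM, against 12.1 CPM in the control. Pooled over libraries, the leukocyte clusters had 35.1 to 58.1 CPM of Cylc2 and up to 37.8 CPM of Cylc1. The folds of Cylc2 in cluster 10 thus lay below the background and cannot be read as higher expression. Control levels of both cylicins in the whole class were near the highest leukocyte levels. In leptotene to zygotene cells, made of cluster 13 alone with 69, 214 and 83 cells, all 10 were lower with both hairpins (29.5% of the 7583 genes compared). Actrt2 had 331 and 284 CPM there, against 567 CPM, and Spem1 had 191 and 185 CPM, against 363 CPM (-0.92 and -0.97, and at least 2-fold lower with both under TMM scaling). These levels were 1.37 and 2.08 times the leukocyte level with the hairpins and 3.35 times in the control for Actrt2. For Spem1 they were 1.72 and 2.23 times, against 2.98 times. Other members were as low as 0.747 times, so the share of background in these differences is not known and was not tested.

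RNA free in a droplet suspension gives UMIs in cells that do not express a gene, so levels in leukocytes are given as the background. Actrt2 had 242 and 136 CPM in the 96 and 183 non-germ cells of the hairpin libraries, against 169 CPM in the 21 of the control, and Actl7a had 111 and 80.2 CPM, against 61.1 CPM. Levels in spermatogonia were like these, as with Actl7a at 77.3 and 81.5 CPM, against 84.5 CPM in the control. Leptotene to zygotene levels of the members were between 0.747 and 3.65 times those of the non-germ cells of the same library. Non-germ cells held 0.508% to 2.02% of any member's UMIs in the hairpin libraries and at most 0.283% in the control library.

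The share of cells with at least 1 UMI was also lower for Actrt3 with both hairpins, in classes not weighted to the control mix. Each cell was thinned to 10000 UMIs, which left out 530 cells of hairpin 1, 332 of hairpin 2 and 70 of the control. In round spermatids 47.1% of cells with hairpin 1 and 43.2% with hairpin 2 had an Actrt3 UMI, against 71.8% in the control (57.0%, 54.7% and 82.0% unthinned). Cluster 2, where Actrt3 is low, gave 133 of 426, 240 of 408 and 122 of 411 of these cells before thinning. In cluster 5, where Actrt3 is high, median depths were 8612 and 9267 UMIs with the hairpins, against 11653 in the control, so thinning left out unequal shares of it. This gap thus cannot be told apart from the mix of clusters. In elongating spermatids the thinned shares were 46.9% and 38.3%, against 57.4%, and in non-germ cells 9.30% and 11.8%, against 28.6%. Cylc1 in round spermatids had 80.6% and 82.9%, against 87.0%, and Spem1 had 81.1% and 76.3%, against 89.4%. Nearly all spermatids carried Actl7a, Actrt2 and Capza3 at this depth, so their shares say little, and non-germ cells carried them too.

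**Figure D5:**
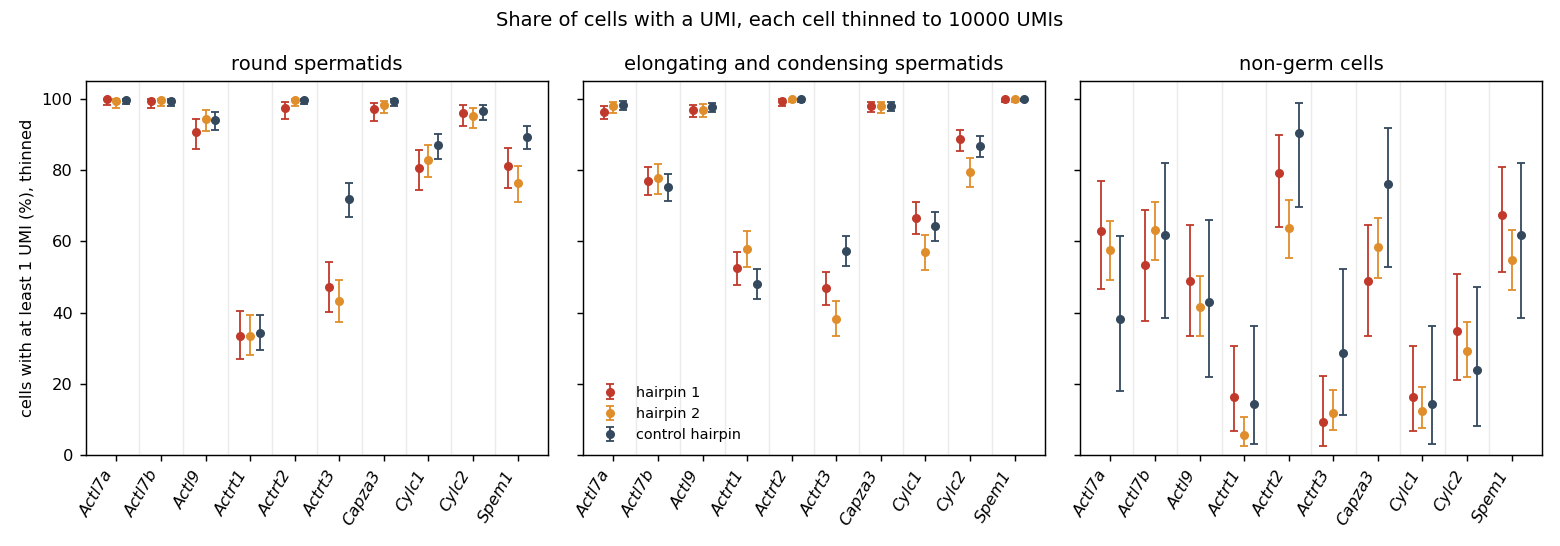
Percent of cells with at least 1 UMI of each gene, each cell thinned to 10000 UMIs, in round spermatids, elongating and condensing spermatids and non-germ cells of the hairpin 1, hairpin 2 and control libraries; bars are exact 95% binomial intervals. Actrt3 has the widest gap in round spermatids (47.1% and 43.2% against 71.8%), and non-germ cells, few in the control (21), show the background. Shares are not weighted to the control cluster mix.

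Other genes of the same structures gave a mixed picture. Of 18 listed partners of the theca and subacrosomal layer, 17 were in the table and passed the filter. Over all cells 10 were lower and 6 higher with both hairpins, beside 28.2% and 61.0% of all genes, with 0 at 2-fold, and their medians were -0.16 and -0.14. Under TMM scaling 12 were lower and 3 higher, with Ccin at least 2-fold lower. The list medians were then -0.43 and -0.49, beside -0.04 and -0.09 over all genes. Shares of all genes lower or higher with both were not counted under TMM scaling. Ccin, which encodes calicin, a basic protein of the calyx like the cylicins, had 95.4 and 81.9 CPM with the hairpins, against 179 CPM in the control (-0.90 and -1.12), a difference of the size seen for Actrt3. Zpbp2, an acrosome matrix gene, had 390 and 360 CPM, against 232 CPM (0.75 and 0.63). Within round spermatids the same list had 8 lower and 8 higher with both, beside 30.9% and 51.4% of all genes (medians -0.01 and 0.00), and 11 lower and 5 higher under TMM scaling. Within elongating spermatids 16 passed the filter, of which 7 were lower and 6 higher with both, beside 33.7% and 44.8% of all genes.

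Genes for general actin, filament capping and the Arp2/3 complex, which most cells use, were more often higher than lower. Of 24 listed, 22 passed the filter, 17 were higher and 4 lower with both hairpins over all cells, beside 61.0% and 28.2% of all genes compared, and the medians were 0.44 and 0.63, beside 0.23 and 0.25. Under TMM scaling 13 were higher and 6 lower, and the medians were 0.17 and 0.30, beside -0.04 and -0.09 over all genes. Shares of all genes were not counted under that scaling. Arpc1b, an Arp2/3 subunit, was the one at least 2-fold higher with both under total scaling, and not under TMM scaling, at 27.3 and 45.9 CPM against 12.4 CPM in the control (1.08 and 1.81), followed by Actr3, at 18.7 and 28.9 CPM against 9.41 CPM (0.92 and 1.52). Antibody lineage markers moved with them, summing to 610 and 1119 CPM over all cells with the hairpins and 19.6 CPM in the control, with all 5 found higher with both, and macrophage markers summed to 116 and 31.1 CPM, against 30.6 CPM; their part in this result was not tested. In round spermatids 13 of 18 passing genes of the list were higher and 5 lower with both, beside 51.4% and 30.9% of all genes. The medians there were 0.13 and 0.24, beside 0.12 and 0.08, and under TMM scaling 9 were higher and 6 lower. In elongating spermatids 8 of 15 passing genes were higher and 5 lower with both, beside 44.8% and 33.7% of all genes. Their medians were 0.25 and 0.32, beside 0.06 and 0.03.

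Genes of the manchette, the microtubule skirt that shapes the head, and of cytoplasm removal were listed as partners of Spem1. Of 15, 13 passed the filter, and 4 were lower and 9 higher with both hairpins over all cells, a share near the 61.0% of all genes that were higher, with medians of 0.27 and 0.32 near the 0.23 and 0.25 of all genes, and under TMM scaling the split was 6 lower and 5 higher and the medians 0.01 and -0.02, so the direction of the list depends on the scaling. Hook1, a manchette protein, had 282 and 253 CPM, against 419 CPM in the control (-0.57 and -0.72). Kif3a, a kinesin motor subunit, had 86.4 and 82.1 CPM, against 53.8 CPM (0.68 and 0.60). In neither spermatid class did a gene of this list differ 2-fold from the control library in both knockdowns.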

How the data were processed

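Single-cell 3' RNA was measured in 3 libraries. The deposited table held natural log (ln) values, ln(1 + 10000 x UMIs of the gene / UMIs of the cell), as the values themselves show. By the submitters' processing notes, Cell Ranger 1.3.1, Seurat 2.0.0 and the mm10 build were used; the strand, annotation and cell filters are not stated there. Whole UMIs were recovered from each cell's smallest non-zero value: 100.0% of 20140203 non-zero values were whole within 0.01, in 5023 cells. The knockdown columns were matched to hairpins by their last digit alone; if that were wrong, hairpins 1 and 2 would change places.

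UMIs were summed per library and class (38330044, 44640351 and 40405313 in all for hairpin 1, hairpin 2 and control) and given per 1000000 with exact 95% Poisson intervals. With 1 library per group there was no test. Genes needed a mean of 10 CPM and 30 UMIs, and classes 50 cells per library. Folds added 1 CPM. A gene was called when at least 2-fold from the control in the same direction with both hairpins. These steps were tested on simulated data.

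Cells were clustered with scanpy 1.11.5 (2000 variable genes, 30 components, 15 neighbours, Leiden resolution 0.8) without the 10 members and Gm4665, and named from marker lists (at least 3 markers raised 1.5-fold). Class names stand for cells that resemble the class. Clusters 9 and 14, whose 2 best germ scores differed by under 0.1, were left undecided, a margin set after the scores were seen; they held 3.35%, 3.58% and 2.12%, and 5.31%, 3.63% and 2.05% of the hairpin 1, hairpin 2 and control cells. The doublet caller marked 4, 6 and 8 cells (0.231%, 0.320% and 0.564%), which is too few in the hairpin libraries for it to have worked, and none was removed.

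Named genes are the members, the 3 genes closest to each in cluster profile, the nearest protein-coding neighbours, genes overlapping a member, the 2 genes of each list with the largest difference shared by both hairpins, and Gm4665. Members, lists and rules were chosen with earlier results of these data known.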

Additional observations from a re-analysis of the deposited data

Results flagged for a closer look

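In 2 genes both hairpins lay above the control in one class and below it in another, with each counting interval off 0; the difference between classes was not tested, since each group is 1 library. Actl7a was higher in pachytene to diplotene spermatocytes (log2 folds 0.19 with hairpin 1 and 0.17 with hairpin 2) and lower in leptotene to zygotene spermatocytes (-0.36 and -0.54), in round spermatids (-0.23 and -0.21) and in elongating spermatids (-0.25 and -0.43). Capza3 was higher in pachytene to diplotene spermatocytes (0.20 and 0.20) and lower in leptotene to zygotene spermatocytes (-0.29 and -0.55) and round spermatids (-0.23 and -0.20). The pachytene to diplotene class was made of clusters 6, 10 and 15 in different proportions in each library, and in cluster 6, where each library had at least 50 cells, Actl7a was at -0.10 and -0.07 and Capza3 at 0.04 and 0.10, all with intervals that included 0. So the higher values in this class were not seen within its largest cluster. The lower values in leptotene to zygotene cells lay near background. Actl7a was there at 1.17 and 1.43 times the leukocyte level with the hairpins, against 2.74 times in the control. Capza3 was at 1.43 and 1.42 times, against 1.55 times.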

How the results depend on the processing

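No paired analysis was possible because each group is 1 library. Total scaling put the median of all genes over all cells at 0.23 and 0.25, and TMM factors put it at -0.04 and -0.09. The split of genes at least 2-fold lower and higher with both hairpins over all cells was 35 and 87 with total scaling, 188 and 31 with TMM factors, 206 and 30 under median-of-ratios scaling, and 54 and 72 with the 20 most abundant genes left out of the totals. Under TMM or median-of-ratios factors 1 member, Actrt3, came to at least 2-fold lower with both hairpins. All 20 member folds over all cells stayed below 0 under each setting tried except the weighting to the control cluster mix, with 17 of 20, and leaving out clusters of fewer than 50 cells in a library, with 19 of 20, an alternative chosen after seeing the data. The median of the members minus that of all genes over all cells was -0.64 and -0.87 as reported. For hairpin 1 it came to -0.49 with no filter beyond 1 UMI, -0.40 with mean ln values per cell, -0.16 with the weighting and -0.47 without the small clusters. For hairpin 2 these gave -0.74, -0.60, -0.18 and -0.69, and thinning to 10000 UMIs gave -1. In round spermatids it was -0.42 and -0.35, and -0.10 and -0.11 with the weighting. In elongating spermatids 8 members were lower with both hairpins as reported, and 5 with the weighting and also without the small clusters. Shares of all genes lower or higher with both hairpins at any size were counted for the reported setting only. Counts under other settings have no such share beside them. No library could be left out, since each group has 1. In elongating spermatids Cylc2 with hairpin 1 was at 0.05 with total scaling and -0.08 with TMM factors. Actrt1, with the fewest UMIs, has the widest intervals, and the 21 non-germ control cells limit the background.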
